A study of Mus musculus with 4 samples.

Results

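The AKR1 genes are a family of aldo-keto reductases, and the 10 described here were Akr1a1, Akr1b3, Akr1b7, Akr1b8, Akr1b10, Akr1c12, Akr1c13, Akr1c14, Akr1c18 and Akr1c19. They were taken by name from a table of 55335 gene rows, and the family was chosen because Akr1c14 and Akr1c19 stood high among the genes with more RNA in IQ3pos than in IQ3neg cells of these same libraries. The genes were thus chosen by their measured IQ3pos and IQ3neg CPM, so their differences are given as a description with no test. Of the 10, 8 had a mean of at least 1 CPM (counts per 1000000 reads in genes) and entered the fit of 13019 genes, while Akr1b7 and Akr1c18 did not.

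The RNA came from epithelial cells of the stomach corpus, the acid- and pepsinogen-producing main body of the stomach, of C57BL/6 mice aged 6 to 8 weeks. All mice carried Iqgap3-2A-tdTomato, in which a red fluorescent protein is made from the locus of Iqgap3, a scaffold protein. Living cells bearing the epithelial surface protein EpCAM were sorted into an Iqgap3-high fraction (IQ3pos) and an Iqgap3-low or negative fraction (IQ3neg), so both fractions share the reporter, the digestion and the sort. Each fraction had 2 SMART-Seq2 libraries. IQ3pos_1909A and IQ3neg_1909B each pooled 3 mice, IQ3pos_1910A and IQ3neg_1910B each pooled 4, and no value for a single animal exists. Where a pair of values is given for a fraction, the 3-mouse library comes first and the 4-mouse library second. The labels do not say that same-numbered fractions came from the same mice, and any p-value measures only the spread between these pools, part of which may be technical.

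Depth ran from 90714929 to 418401262 reads in genes per library. Clps, Pla2g1b, Pgc and Chia1, which encode secreted digestive proteins, took 50.8% and 48.9% of the reads in IQ3neg but 6.00% and 2.11% in IQ3pos. Values below are therefore scaled CPM, the deposited CPM divided by a TMM factor for library composition. Iqgap3 itself had 0.155 (20 reads) and 8.14 scaled CPM in IQ3pos, against 0.0586 (5 reads) and 0.546 in IQ3neg, so IQ3pos was above IQ3neg within each pool size but the fractions overlapped across pools. Differences within each pool size are given below for that reason. Markers set out for the sorted tissue were present: the 4 epithelial genes Epcam, Cdh1, Krt8 and Krt18 summed to between 1633 and 3848 scaled CPM in each library.

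Aldo-keto reductases are cytosolic enzymes that use NADPH to reduce aldehydes and ketones to alcohols. AKR1A and AKR1B enzymes act mainly on aldehydes from sugars, lipids and food, and many AKR1C enzymes interconvert ketone and hydroxyl groups on steroids and prostaglandins. In the stomach lining, which meets ingested carbonyl compounds directly, such enzymes are known as part of the detoxifying outfit of the epithelium.

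The genes sit in tandem clusters. In GENCODE vM21 on GRCm38, the 5 Akr1c genes lie on chromosome 13, from Akr1c14 (chr13:4049011-4090688, plus strand) and Akr1c18 (chr13:4132615-4150654, minus) through Akr1c13 (chr13:4191150-4205596, plus) and Akr1c19 (chr13:4228700-4252843, plus) to Akr1c12 (chr13:4268176-4279433, minus). The 4 Akr1b genes lie on chromosome 6 as Akr1b3 (chr6:34302434-34317478, minus), Akr1b8 (chr6:34354119-34368463, plus), Akr1b10 (chr6:34384218-34396950, plus) and Akr1b7 (chr6:34412334-34423142, plus). Akr1a1 stands alone on chromosome 4 (chr4:116636510-116651680, minus).

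How far reads can be told apart depends on how alike the copies are, so the first 120 bases of the coding sequence are shown for the 4 Akr1c genes in the fit. They run 5′ to 3′ from the start codon, from GENCODE vM21, and capitals mark bases that differ from Akr1c13.
Akr1c13: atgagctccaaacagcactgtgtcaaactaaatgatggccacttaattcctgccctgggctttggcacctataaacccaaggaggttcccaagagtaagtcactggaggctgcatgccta
Akr1c12: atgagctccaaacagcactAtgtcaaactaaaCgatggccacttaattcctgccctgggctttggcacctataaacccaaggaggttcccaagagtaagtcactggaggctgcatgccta
Akr1c19: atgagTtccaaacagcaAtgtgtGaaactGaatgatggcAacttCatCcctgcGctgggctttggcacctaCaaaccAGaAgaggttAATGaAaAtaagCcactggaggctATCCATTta
Akr1c14: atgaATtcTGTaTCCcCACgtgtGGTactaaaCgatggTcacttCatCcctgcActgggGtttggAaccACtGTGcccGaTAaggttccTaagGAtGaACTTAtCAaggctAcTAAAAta
Over this stretch Akr1c12 differed from Akr1c13 at 2 bases, Akr1c19 at 26 and Akr1c14 at 46. Over the whole coding sequence of 969 bases Akr1c12 and Akr1c13 differed at 37, an identity of 96.2%, and 28.6% of the 50-base windows of either transcript were found unchanged in the other. No 50-base window of Akr1c14, Akr1c19 or Akr1a1 was shared with another gene. Reads of Akr1c12 and Akr1c13 may thus have been split or lost between them, and how multi-mapped reads were counted is not given in the sources used here.

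The same stretch is shown for Akr1b8 and Akr1b10, neighbours whose levels went opposite ways, with capitals for bases that differ from Akr1b8.
Akr1b8: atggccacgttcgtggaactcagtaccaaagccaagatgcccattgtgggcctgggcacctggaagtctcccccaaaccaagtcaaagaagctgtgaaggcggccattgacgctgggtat
Akr1b10: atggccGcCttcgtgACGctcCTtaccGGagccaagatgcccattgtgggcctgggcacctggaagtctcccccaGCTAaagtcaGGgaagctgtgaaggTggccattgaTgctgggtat
These 120 bases differed at 17. The full coding sequences of 948 bases were 84.7% identical, and 3.21% of the 50-base windows of Akr1b8, but no window of 100 bases, were shared with any other gene. For Akr1b3, 86.2% of the 50-base windows were shared with pseudogenes, and the gene overlaps the antisense gene Gm14546, so its value is uncertain on both counts. Akr1c14 and Akr1c19 each overlap a pseudogene on the same strand, Gm18857 and Marcksl1-ps4.

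Among the hydroxysteroid-converting Akr1c enzymes, Akr1c14, known as a 3-alpha-hydroxysteroid dehydrogenase, had 754 and 874 scaled CPM in IQ3pos and 128 and 161 in IQ3neg. Both IQ3pos libraries stood far above both IQ3neg libraries. The means were 814 ± 84.8 and 145 ± 23.4 (SD, n = 2 each), a 5.64-fold ratio. The fitted difference in log2(scaled CPM + 1), IQ3pos minus IQ3neg, was 2.49 (SE 0.30), at rank 276 of the 13019 genes. It was 2.55 within the 3-mouse libraries and 2.43 within the 4-mouse libraries.

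Akr1c19, a relative with fewer known substrates, had 466 and 574 scaled CPM in IQ3pos, and 131 and 135 in IQ3neg. The IQ3neg values were almost equal, and both lay far below IQ3pos. The means were 520 ± 76.3 and 133 ± 3.36 (SD, n = 2 each), a 3.91-fold ratio, and the fitted log2 difference was 1.95 (SE 0.30), at rank 636. By pool it was 1.83 in the 3-mouse libraries and 2.08 in the 4-mouse libraries. Within a library the ratio of Akr1c14 to Akr1c19 was 1.62 and 1.52 in IQ3pos but 0.979 and 1.19 in IQ3neg, so Akr1c14 gave more reads than Akr1c19 in 3 of the 4 libraries.

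The near-copies Akr1c13 and Akr1c12 were also higher in IQ3pos. Akr1c13 had 599.6 and 616 scaled CPM in IQ3pos against 138 and 226 in IQ3neg. Its IQ3pos values were close together while the IQ3neg values were spread, with means of 608 ± 11.6 and 182 ± 62.6 (SD, n = 2 each) and a fitted log2 difference of 1.78 (SE 0.35). Without the 3-mouse IQ3neg library it was 1.12. Akr1c12 had 249 and 351 scaled CPM in IQ3pos against 111 and 125 in IQ3neg, with means of 300 ± 72.0 and 118 ± 10.04 and a fitted log2 difference of 1.32 (SE 0.34). The fractions did not overlap for either gene.

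Because the pair can exchange reads, the reads of both were also summed before fitting. The sum gave a log2 difference of 1.61 (SE 0.31), between the values of the single genes. Within the 3-mouse and the 4-mouse libraries the difference was 2.11 and 1.44 for Akr1c13, and 1.16 and 1.48 for Akr1c12. The copies thus differed in the 3-mouse libraries and were nearly equal in the 4-mouse libraries. The ratio of Akr1c13 to Akr1c12 was 2.41 and 1.76 in IQ3pos and 1.24 and 1.81 in IQ3neg, with no separation of the fractions.

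Akr1c18, the 20-alpha-hydroxysteroid dehydrogenase known for inactivating progesterone, had 2 and 1 reads in IQ3pos and 0 in each IQ3neg library. A count of 0 allows up to 3 reads, or 0.0351 and 0.00866 scaled CPM in IQ3neg. The gene sits inside the cluster between Akr1c14 and Akr1c13, at RNA levels near 0 in all 4 libraries. Such limits and all read intervals cover counting error only, since SMART-Seq2 reads carry no molecular identifiers.

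Akr1a1 is the aldehyde reductase that also converts glucuronate to gulonate on the mouse route to ascorbate. It had 455 and 567 scaled CPM in IQ3pos and 259 and 368 in IQ3neg. IQ3pos was higher in both pools but by less than for any Akr1c gene above. The means were 511 ± 79.4 and 314 ± 77.05 (SD, n = 2 each), and the fitted log2 difference was 0.72 (SE 0.32), at rank 3806. Within the pools it was 0.81 and 0.62, and without the 3-mouse IQ3neg library it was 0.16.

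Akr1b3 is the mouse aldose reductase, the enzyme that turns glucose to sorbitol at the head of the polyol route. It had 48.7 and 29.2 scaled CPM in IQ3pos and 19.8 and 23.9 in IQ3neg. The separation was narrow in the 4-mouse libraries, where the log2 difference was 0.28, against 1.26 in the 3-mouse libraries. The fitted value was 0.77 (SE 0.55), and it was 0.16 without the 3-mouse IQ3pos library and 0.34 without the 3-mouse IQ3neg library.

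Akr1b8, a reductase of lipid-derived aldehydes and retinal, was near 0 in IQ3neg and low in IQ3pos. It had 1284 and 4247 reads in IQ3pos, or 9.97 and 13.3 scaled CPM, against 1 and 15 reads in IQ3neg. The ratio was 307 in the 4-mouse libraries (95% counting interval 186 to 549) and 851 in the 3-mouse libraries (152.5 to 33641), the latter resting on a single IQ3neg read. The fitted log2 difference of 3.61 (SE 0.94), at rank 57, understates the ratio since 1 is added to each value, and it moved from 1.72 with 5 added to 8.57 with DESeq2 on the reads. Akr1b8 reached the mean of 1 CPM only through its IQ3pos libraries.

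Counts near 0 were common between libraries of the same fraction. Of genes at 5 to 20 scaled CPM in 1 IQ3neg library, 5.96% or 10.4% were under 0.1 in the other, and for IQ3pos these shares were 13.8% and 21.8%. Of the 1294 genes at 5 to 20 scaled CPM in both IQ3pos libraries, 12 (0.927%) were, like Akr1b8, under 0.1 in both IQ3neg libraries. The other way round the share was 6.98%, 153 of 2192 genes. This tally was chosen after the Akr1b8 values were seen.

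Akr1b10, next to Akr1b8 on the chromosome, had 11.2 and 11.0 scaled CPM in IQ3pos and 15.4 and 31.1 in IQ3neg. It was the 1 AKR1 gene of the 8 with a lower mean in IQ3pos, 11.1 ± 0.161 against 23.2 ± 11.1 (SD, n = 2 each), with a fitted log2 difference of -0.92 (SE 0.69). Within the pools it was -0.42 and -1.42. Without the 3-mouse IQ3neg library it was -1.70 and without the 4-mouse IQ3neg library -0.44. On the deposited CPM the fractions overlapped, so the separation rests on the scaling. The ratio of Akr1b8 to Akr1b10 was 0.886 and 1.21 in IQ3pos and 0.000759 and 0.00139 in IQ3neg, a quantity that no scaling of a library can move. Summing the reads of Akr1b7, Akr1b8 and Akr1b10 left a log2 difference of 0.043 (SE 0.62).

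Akr1b7, first known as a protein of the mouse vas deferens and able to make prostaglandin F2-alpha, had 0 and 6 reads in IQ3pos and 5 and 2 in IQ3neg. All 4 values were near the limit of detection, and the fractions overlapped.

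**Figure D1:**
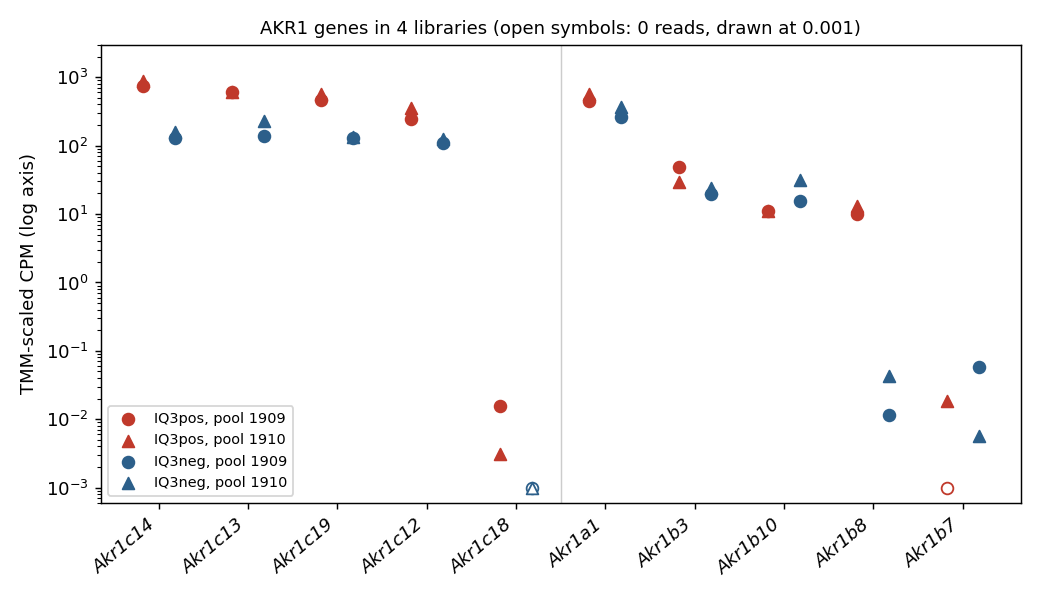
Level of the 10 AKR1 genes in each library as scaled CPM on a log axis, with IQ3pos and IQ3neg in different colours and the 3-mouse and 4-mouse pools as different symbols. Akr1c14, Akr1c13, Akr1c19, Akr1c12, Akr1a1 and Akr1b3 lie higher in both IQ3pos libraries, Akr1b8 goes from 9.97 and 13.3 in IQ3pos to near 0 in IQ3neg, and Akr1b7 and Akr1c18 stay near 0 throughout.

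Of the 8 AKR1 genes in the fit, 7 had both IQ3pos libraries above both IQ3neg libraries on scaled CPM and 1, Akr1b10, had both below. Over all 13019 genes the same was so for 25.1% above and 21.4% below. With only 2 libraries a fraction such separation is frequent, and since the contrast chose the family nothing is read from the count of 7. By limma with Benjamini-Hochberg adjustment at 0.05, 3 genes were called higher in IQ3pos (0.0230%) and 25 lower (0.192%). The 3 were Gkn1, Atp4b and Lgals2. At an unadjusted p under 0.05, limma gave 6.76% of all genes higher and 7.79% lower. On the deposited CPM 40.9% of genes lay above and 14.2% below, and the median log2 difference of all genes was 0.68 in place of 0.10.

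**Figure D2:**
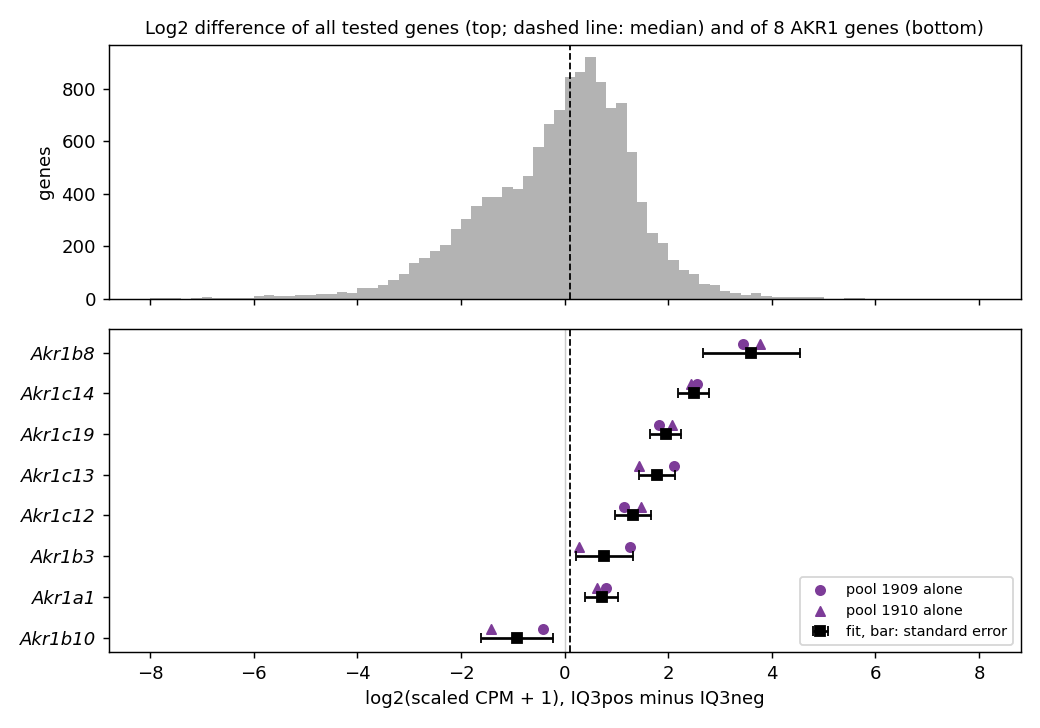
Distribution of the log2 difference (IQ3pos minus IQ3neg, scaled CPM + 1) over all 13019 genes, with the median of 0.10 as a dashed line, above the values of the 8 AKR1 genes with standard errors and the difference within each pool alone. Akr1b8 at 3.61 and Akr1c14 at 2.49 lie farthest to the right, Akr1b10 at -0.92 to the left.

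Counted together, the 10 genes gave 2593 and 3035 scaled CPM in IQ3pos and 802 and 1071 in IQ3neg, a 3.01-fold ratio of means. As deposited this was 0.368% and 0.348% of all reads in IQ3pos and 0.0595% and 0.0887% in IQ3neg. The 5 Akr1c genes made up 79.8% and 79.6% of the family reads in IQ3pos against 63.3% and 60.5% in IQ3neg, so the IQ3pos pool of AKR1 RNA held a larger Akr1c share.

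Per kb of coding sequence, Akr1c14 led in IQ3pos with 29.1% and 28.8% of the family level, against 15.98% and 15.1% in IQ3neg. Akr1a1 led in IQ3neg with 32.1% and 34.2%, against 17.4% and 18.6% in IQ3pos. By scaled CPM per kb of coding sequence, the order in IQ3pos began with Akr1c14 and Akr1c13. Akr1c19 and Akr1a1, whose libraries overlapped, came next, then Akr1c12 and Akr1b3, and last Akr1b10 and Akr1b8, which overlapped. In IQ3neg Akr1a1 came first, then Akr1c13 overlapping with Akr1c14 and Akr1c14 with Akr1c19. Akr1c12, then Akr1b3 overlapping with Akr1b10, and last Akr1b8 followed. As percent of the family level in IQ3neg, Akr1c13 lay apart from Akr1c14, and Akr1c19 overlapped with Akr1c12. The ranking depends on the length used. Per kb of the transcript with the longest coding sequence, Akr1c13 came first in IQ3pos with 27.5% and 24.1%. Akr1c19 (21.7% and 22.8%) and Akr1a1 (18.5% and 19.7%) followed. Akr1c14, with a transcript of 2436 bases, held 17.9% and 17.7% by that measure. Per kb of all annotated exons Akr1c13 came first in IQ3pos with 37.7% and 33.1%. Akr1c19, whose annotated exons span 5892 bases, then held only 7.14% and 7.51%. The ratio of Akr1a1 to Akr1c14 reads, which is free of length and scaling when fractions are compared, was 0.603 and 0.648 in IQ3pos and 2.02 and 2.28 in IQ3neg.

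**Figure D3:**
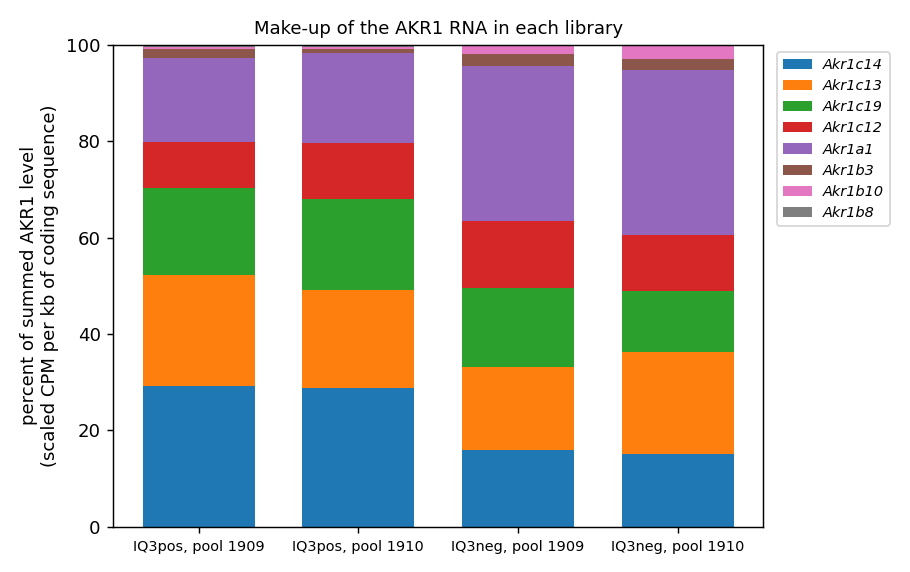
Share of each AKR1 gene in the summed family level, in percent of scaled CPM per kb of coding sequence, stacked for each of the 4 libraries. Akr1c14 fills 29.1% and 28.8% of the IQ3pos bars and 15.98% and 15.1% of the IQ3neg bars, while Akr1a1 goes from 17.4% and 18.6% to 32.1% and 34.2%. The order of the genes depends on the length used, and Akr1c14 does not lead in IQ3pos per kb of transcript.

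Marker genes of the gland cell types moved with these values. The 6 pit cell markers, genes of the mucus-making surface such as Gkn1 and Gkn2, all had IQ3pos above IQ3neg and summed to 8856 and 11496 scaled CPM in IQ3pos against 1910.5 and 2355 in IQ3neg. The 5 markers of dividing cells were also all above (658 and 1870 against 119 and 216), and the 6 parietal markers summed to 2914 and 2671 against 741 and 900, with 3 above and 1 below. The 3 mucous neck markers summed to 3644 and 7547 against 1591 and 2618. The IQ3pos sums were mostly Tff2, the 1 of them that lay above. In IQ3neg Gkn3 (678 and 1227) exceeded Tff2 (559 and 719). Gkn3 and Muc6 overlapped, and Muc6 was lower within each pool. All 7 chief cell markers, 5 of 6 enteroendocrine markers and 4 of 5 tuft markers lay below. On the deposited CPM the tuft count was 1 of 5. The part of these marker levels in the AKR1 differences was not tested, and in sorted bulk RNA fewer cells of a type and less RNA per cell cannot be told apart. Of markers of other tissues, the forestomach list summed to at most 1.43 scaled CPM in any library. The 4 pancreatic acinar genes summed to 10.9 and 1.09 in IQ3pos against 786 and 803 in IQ3neg. In IQ3neg nearly all of this was Cel (782 and 801). The 3 hepatocyte genes summed to 90.5 and 111 in IQ3pos against 800.5 and 569 in IQ3neg, nearly all of it Ttr, and Alb had at most 1.88 in IQ3pos, where Akr1c14 had 754 and 874. The 5 immune markers summed to 188 and 42.9 against 497 and 86.3.

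Among the genes whose profile over the 4 libraries lay closest to that of Akr1c14, by Euclidean distance of centred log2(scaled CPM + 1) among 3523 genes of at least 30 scaled CPM, were Tff1 (distance 0.206), Gkn2, Mtap and Gsr (0.244). Tff1 and Gkn2 are among the pit markers above, and Gsr encodes glutathione reductase. For Akr1c19 they were Slc9b2 (0.123), Dis3, Apip, Fam136a and Exosc8 (0.230). The distance between Akr1c14 and Akr1c19 themselves was 0.579. The genes named were the closest of 3523 searched, while this pair was fixed, so nothing is read from its larger distance. With 4 libraries such distances describe likeness only.

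Upstream sequence was examined for the members with a start site in RefSeq on GRCm38.p6, which were 9 of 10. The 250 bases before the starts of Akr1c12 (chr13:4279400-4279649, minus strand) and Akr1c13 (chr13:4190937-4191186, plus strand) are shown because these near-copies differ in level, with capitals marking the bases that differ between them.
Akr1c12: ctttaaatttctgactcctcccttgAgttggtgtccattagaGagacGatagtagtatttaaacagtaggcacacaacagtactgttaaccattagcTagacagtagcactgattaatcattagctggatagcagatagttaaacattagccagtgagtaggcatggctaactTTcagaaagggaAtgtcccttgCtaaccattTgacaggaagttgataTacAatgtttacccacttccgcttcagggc
Akr1c13: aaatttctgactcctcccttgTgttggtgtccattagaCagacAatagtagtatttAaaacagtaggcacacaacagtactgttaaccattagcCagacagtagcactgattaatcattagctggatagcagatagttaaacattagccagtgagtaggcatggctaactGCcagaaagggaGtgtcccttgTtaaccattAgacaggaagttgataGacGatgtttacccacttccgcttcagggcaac
They were 95.1% identical over 247 aligned columns, so the likeness of the pair extends beyond the coding sequence, with differences spread over the window.

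The 250 bases before the starts of Akr1c14 (chr13:4059341-4059590, plus strand) and Akr1b8 (chr6:34353896-34354145, plus strand) are shown because these genes had the largest differences, with capitals marking matches to the motifs searched. The windows of Akr1c14 and of Akr1c19 (chr13:4233490-4233739, plus strand) lie wholly inside the GENCODE genes. Those of the other members with a RefSeq start end a little inside theirs.
Akr1c14: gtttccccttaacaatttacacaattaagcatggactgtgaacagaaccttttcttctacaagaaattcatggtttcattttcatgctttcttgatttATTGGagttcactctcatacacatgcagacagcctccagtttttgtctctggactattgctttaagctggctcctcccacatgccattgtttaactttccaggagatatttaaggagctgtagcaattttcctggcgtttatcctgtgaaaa
Akr1b8: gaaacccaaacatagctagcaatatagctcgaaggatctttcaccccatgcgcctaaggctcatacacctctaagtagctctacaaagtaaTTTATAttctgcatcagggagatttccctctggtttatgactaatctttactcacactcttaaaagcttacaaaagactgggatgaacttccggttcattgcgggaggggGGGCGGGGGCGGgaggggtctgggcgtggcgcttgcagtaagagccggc
The motifs searched, on both strands, were the core of the antioxidant response element bound by NRF2 (TGACNNNGC), the AP-1 site (TGANTCA), the TATA box (TATAAA), the CCAAT box (CCAAT) and the GC box (GGGCGG). Akr1c14 and Akr1c19 each held a CCAAT box on the other strand, 152 and 172 bases before the start. Akr1b8 held a pair of GC boxes at 49 and 43 and a TATA match on the other strand at 159, while Akr1c12, Akr1c13 and Akr1a1 held none of the 5. None of the 9 members searched held the antioxidant core or the AP-1 site, and Akr1b3 was not searched. These 2 motifs occur in 10.2% and 6.75% of 32851 promoters of this length. The CCAAT box occurs in 33.8%, the GC box in 32.7% and the TATA box in 12.4%, so the matches seen are of kinds common to many promoters.

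Around the family, other aldo-keto reductases were few. Akr1e1, which reduces 1,5-anhydrofructose, had 165 and 146 scaled CPM in IQ3pos and 88.4 and 91.5 in IQ3neg, with no overlap. Its log2 difference of 0.78 (SE 0.34) was short of the threshold by limma (adjusted p = 0.366). Akr7a5, a reductase of aflatoxin dialdehyde, overlapped between fractions with 8.65 and 6.89 against 0.878 and 8.91, and its log2 difference of 1.02 (SE 1.13) likewise was short of the threshold by limma (adjusted p = 0.697). Without the 3-mouse IQ3neg library it was -0.46. Akr1c6, Akr1c20, Akr1c21, Akr1cl and Akr1d1 had between 0 and 19 reads in any library, so among the Akr1c genes of the mouse listed here the RNA was that of Akr1c12, Akr1c13, Akr1c14 and Akr1c19. Kcnab1, Kcnab2 and Kcnab3, also on this list, fell short of a mean of 1 CPM. Kcnab1 lay below, with 7 and 4 reads in IQ3pos against 156 and 589 in IQ3neg. Kcnab3 also lay below (0 and 2 reads against 102 and 856), and Kcnab2 overlapped. DESeq2 called Kcnab1 and Kcnab3 lower in IQ3pos.

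Across the 8 lists of neighbouring pathways, limma called none of the 71 genes that reached a mean of 1 CPM after adjustment, while 19 were higher and 5 lower at an unadjusted p under 0.05. edgeR called none of 79 list genes that it tested. DESeq2 called 3 higher and 6 lower of 84, and 5 of these 9 were not among the 71. Of the 71, 36 had IQ3pos above and 11 below on scaled CPM, and 46 and 8 on the deposited CPM. Each list is given beside the background of 25.1% above and 21.4% below and the median of 0.10 for all genes, and none was tested as a list. Counts below are of genes that reached this mean, so a gene present in only 1 fraction could enter through it.

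NRF2 is the transcription factor that turns on many genes of oxidant defence, AKR1 genes among them in other tissues. Its gene Nfe2l2 had 312 and 324 scaled CPM in IQ3pos and 70.2 and 95.5 in IQ3neg. The fitted log2 difference was 1.94 (SE 0.34), short of the threshold by limma (adjusted p = 0.131). Of 7 regulators, 3 lay above and 1 below, with a median of 0.078. Of 21 NRF2 target genes listed, 19 reached the mean of 1 CPM. Of these 15 lay above and none below, with a median log2 difference of 1.28. By limma 8 were higher at an unadjusted p under 0.05 and none lower. Hmox1 and Slc7a11 fell short of that mean. Hmox1 lay below, with 0.0466 and 0.00625 scaled CPM in IQ3pos against 0.187 and 1.57 in IQ3neg, and Slc7a11 overlapped.

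Among the NRF2 targets, Gstm1, a glutathione transferase, had 755 and 1198 scaled CPM in IQ3pos and 175 and 283 in IQ3neg. Its log2 difference was 2.09 (limma adjusted p = 0.148). The ferritin chain Fth1 had 864 and 829 against 679 and 612, a far smaller separation. The targets that follow were chosen after their values were seen. Nqo1, a quinone reductase, had 197 and 190 against 22.4 and 46.6. Gclc, which limits glutathione synthesis, had 90.9 and 74.9 against 14.1 and 11.7. Txnrd1 (56.0 and 69.1 against 66.0 and 34.7) and Srxn1 (9.14 and 9.09 against 11.0 and 6.84) were among the targets that overlapped between fractions.

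Enzymes with overlapping substrates did not all follow. Of 15 short-chain carbonyl and retinal reductases that reached a mean of 1 CPM, 7 lay above and 3 below, with a median log2 difference of 0.81. The most abundant, Rdh13 and Dhrs3, had log2 differences of 1.07 and 0.81. Cbr2, a carbonyl reductase named after its values were seen, went the other way, with 0.0233 and 0.0156 scaled CPM in IQ3pos against 10.4 and 5.56 in IQ3neg. Of 9 steroid-converting enzymes, 4 lay above and 2 below, with a median of 0.20, and Hsd17b10 and Hsd17b4 had differences of 1.17 and 1.008.

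Of 12 genes of prostaglandin synthesis and breakdown, 3 lay above and 4 below, with a median of 0.038. Ptgr1, a reductase that breaks down leukotriene and prostaglandin products, had 419 and 364 scaled CPM in IQ3pos and 66.6 and 88.8 in IQ3neg. Its log2 difference of 2.33 (SE 0.34) was short of the threshold by limma (adjusted p = 0.0936). Ptges3, a co-chaperone also listed as a prostaglandin E synthase, had a difference of 1.0004.

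On the sugar side, Ugdh, which makes the UDP-glucuronate from which the substrate of Akr1a1 derives, had 358 and 657 scaled CPM in IQ3pos and 86.2 and 98.9 in IQ3neg. Its log2 difference of 2.38 (SE 0.40) was short of the threshold by limma (adjusted p = 0.116). Of the 4 genes of the glucuronate and ascorbate list, Ugdh and Ugp2 reached a mean of 1 CPM, and both lay above. Rgn and Gulo fell short of it. Rgn had 0 reads in each IQ3pos library and 2 and 810 in IQ3neg. Gulo had 1 and 8 reads in IQ3pos and 0 in each IQ3neg library. Of the 5 polyol and fructose genes, the steps that follow Akr1b3, 1 lay above and 1 below, with a median of -0.46. Slc2a5, a fructose transporter, overlapped between fractions and turned direction with 1 library left out.

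**Figure D4:**
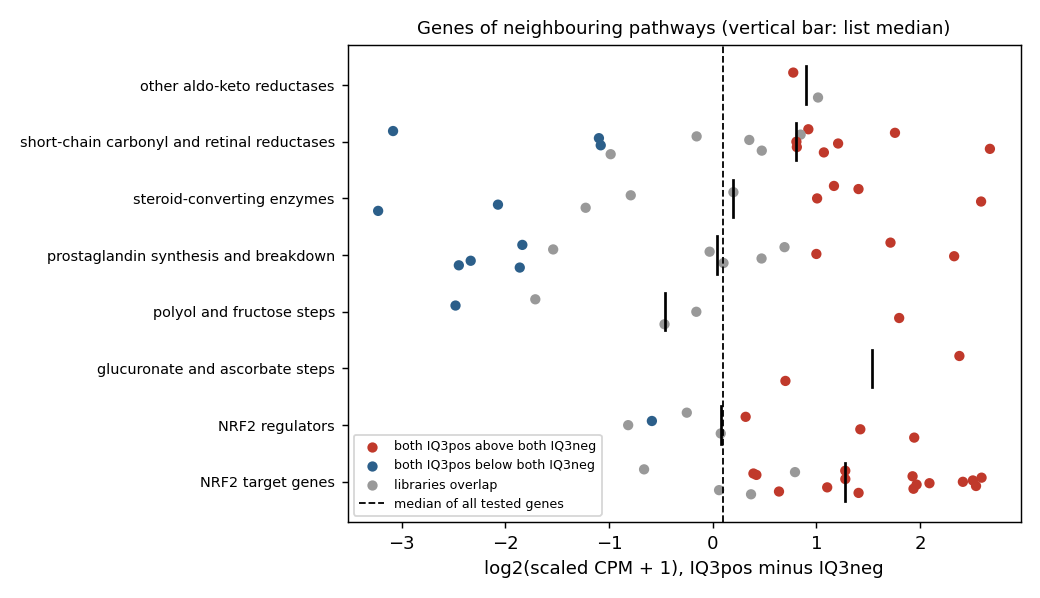
Log2 difference (IQ3pos minus IQ3neg, scaled CPM + 1) of the 71 genes in 8 neighbouring pathway lists that reached a mean of 1 CPM. Colours show whether both IQ3pos libraries lay above or below both IQ3neg libraries. Vertical bars are list medians, and the dashed line is the median of all genes, 0.10. The NRF2 target genes have 15 of 19 above and a median of 1.28, while the prostaglandin list lies at 0.038 and the polyol list at -0.46.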

How the data were processed

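RNA was measured by SMART-Seq2 in 4 libraries, 2 of IQ3pos and 2 of IQ3neg cells. The deposited values are CPM, which the authors made on GRCm38/mm10. The tools, per the submitters' processing notes and with no role or order, were edgeR, featureCounts, Subread 2.0.0 and STAR 2.7.1a. Settings for annotation, strand and multi-mapped reads were not given in the sources used here. A library's CPM column sums to 1000000, and 100% of the values above 0 could be turned back to whole reads (within 0.05). Of 55335 rows, 109 repeat a symbol.

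TMM factors (edgeR 4.0.16) from these reads were 1.42 and 1.15 for IQ3pos, and 0.742 and 0.828 for IQ3neg. limma 3.58.1 (R 4.3.3) was fitted with its trend option to log2(scaled CPM + 1) for genes averaging 1 CPM or more (13019), with no block, two-sided, with Benjamini-Hochberg adjustment at 0.05. With 2 residual degrees of freedom, 4.07 prior ones were added. Alternatives were other pseudocounts, filters and scalings, edgeR's quasi-likelihood test and DESeq2 1.42.0 on the recovered reads, each library left out, each pool alone, a replicate block and summed copies. Coding sequences and windows were compared with Biopython 1.88.

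The members and all gene lists were chosen with earlier results of these data known. Named genes were all 10 members and every gene of the other aldo-keto reductases that reached a mean of 1 CPM. Also named were the called or else the 2 most abundant genes of each list, the 5 closest profiles and up to 2 marker examples per cell type. Others fell short of that mean or are said to have been chosen after their values were seen. Hsd17b8 was not matched. Some genes that the rule takes are not reported here.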

Additional observations from a re-analysis of the deposited data

How the results depend on the processing

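Of the 8 AKR1 differences, 7 kept their sign under every alternative run, and Akr1b10 went from -0.92 to 0.043 when summed with Akr1b7 and Akr1b8. Calls depended on the setting. In place of 3 genes called higher and 25 lower, DESeq2 on the recovered reads called 1064 and 2063, DESeq2 size factors with limma called 7 higher, edgeR's quasi-likelihood test called 9 higher, a mean of at least 10 CPM gave 51 and 73, a pseudocount of 5 gave 15 and 52, a pseudocount of 0.1 gave 0 and 1, shares without the 20 most abundant genes gave 1 and 13, and the deposited CPM, and likewise no filter, gave 0 and 0. Leaving out 1 library gave 0 calls in either direction, with the lone sample assumed to vary like the other fraction. Genes of the neighbouring lists called were 3 higher and 6 lower with DESeq2 (84 tested), 7 higher with a mean of at least 10 CPM (51 tested) and 1 higher (Ptgr1) with a pseudocount of 5. The deviations of same-numbered libraries from their fraction means had a correlation of 0.15 over genes. With 2 libraries a fraction both numbers give this same value, so it cannot decide whether the libraries were pairs. The main fit did not take the numbers as pairs, since the labels do not say that they are. With a replicate block 265 of the 13019 genes were called higher and 186 lower, among them 9 of the 71 list genes higher. Nfe2l2, Gstm1, Ptgr1, Ugdh, Gsr and Nqo1, all short of the threshold in the main fit, were called higher with this block. The same genes were called higher with a mean of at least 10 CPM. The lists were chosen with earlier results known, so nothing is read from the counts of list genes called. Akr7a5 (1.02) reversed to -0.33 in the 4-mouse libraries alone and ran from -0.46 to 2.25 with 1 library left out. Slc2a5 (-0.16) reversed to 0.093 with DESeq2, 0.48 on the deposited CPM, 0.033 with edgeR and 0.74 in the 3-mouse libraries alone, and ran from -1.26 to 0.72 with 1 library left out. The cause of these changes was not tested. Among the members, depth limits only the lowest genes, Akr1b7, Akr1c18 and Akr1b8 in IQ3neg, at 0 to 15 reads. Fewer genes had any read in IQ3neg (21757 and 21823) than in IQ3pos (29724 and 30017), though IQ3neg was deeper at each pool size. The cause of that difference was not tested.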
